A study of Homo sapiens with 4 samples.

Results

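YAP1 and WWTR1, which encodes TAZ, are the transcriptional coactivators at the end of the Hippo pathway, and the TEAD genes encode the DNA-binding proteins that carry them to their target genes. Described here are 12 genes: the coactivators YAP1 and WWTR1, the factors TEAD1, TEAD2, TEAD3 and TEAD4, and the target genes CCN1, CCN2, ANKRD1, AMOTL2, AJUBA and LATS2. They were chosen by symbol, 10 from a list of the pathway and its targets and TEAD2 and TEAD3 because the list takes in the TEAD family. They are 12 of 34080 genes with a matched transcript, and all 12 were among the 13569 genes that passed the filter on low counts.

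The libraries were made from polyadenylated RNA of HK-2 cells, an immortalised human cell line derived from the renal proximal tubule. All of them carried a Tet-On transgene for HA-tagged PRCC-TFE3, a fusion protein found in renal cell carcinomas with a TFE3 translocation, and grew in medium with 1.5% FCS. Doxy(+) cells received 0.2 microg/ml doxycycline for 24 h and Doxy(-) cells received none, with 2 libraries, numbered 1 and 2, in each group. The labels speak of inducible cell lines and leave the meaning of the number (clone, day or repeat) unstated, so the p-values measure the spread between these libraries, which may be technical. No HK-2 cells without the transgene were analysed here, so doxycycline itself and PRCC-TFE3 cannot be told apart.

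The estimated counts summed to between 14042545 and 16618401 reads per library. TFE3, the gene whose fusion is in the transgene, stood at 66.9 and 69.1 reads per 1000000 (CPM) in Doxy(-). It was higher in both induced libraries, at 367 and 322 CPM. The rise lay on transcripts TFE3-203 and TFE3-204, which are not annotated as coding. The coding TFE3-201 held 464 and 604 estimated counts in Doxy(-) and 551 and 534 in Doxy(+). TFE3 also has copies among the transcripts that matched no gene. Of 7 kidney epithelial markers, PAX8 was read at 564.5 to 604.8 CPM and KRT8, KRT18, CDH2 and EPCAM were also read throughout, whereas CDH1 stayed under 1 CPM and PAX2 at 0 or 1 count. Of 7 proximal tubule markers, LRP2 and AQP1 stood at 0 or 1 count in every library, and CUBN, ANPEP and SLC34A1 did not exceed 1.32 CPM. SLC5A2 was read at 2.91 to 4.04 CPM, and GGT1, at 68.7 to 86.0 CPM, was the one read well in every library. The 6 fibroblast and smooth muscle markers summed to between 17.6 and 24.98 CPM, most of it COL1A1, while the 4 endothelial markers summed to at most 1.04 CPM and the 4 leukocyte markers to at most 0.854 CPM.

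In the Hippo pathway the kinases MST1 and MST2 (genes STK4 and STK3), with their scaffold SAV1, activate LATS1 and LATS2. The LATS kinases then phosphorylate YAP and TAZ, which holds them in the cytoplasm. When the pathway is off, at low cell density, on stiff surfaces or with a taut actin skeleton, YAP and TAZ enter the nucleus and bind TEAD proteins. The activity of YAP and TAZ is set largely by phosphorylation and location, which RNA does not measure, and it is usually read from the RNA of targets such as CCN1 and CCN2. In the kidney the pathway is known for its part in nephron development, tubular injury and fibrosis.

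TEAD proteins bind the letters GGAATG, and MiT/TFE factors such as TFE3 bind the E-box CACGTG. Promoters of RefSeq on GRCh38.p14, from 250 bases before to 50 bases after a start site, were searched on both strands for these letters, for the AP-1 motif TGANTCA and for the CArG box of SRF. No matches of different motifs overlapped each other in the members. The table held 13 such windows for 9 of the 12 genes, all but CCN1, TEAD1 and TEAD4. GGAATG was found in a window of 6 genes, YAP1, CCN2, ANKRD1, AMOTL2, AJUBA and LATS2, and 14.03% of all 35116 windows hold it. The E-box was found in YAP1 and LATS2 (7.256% of all windows), the AP-1 motif in ANKRD1 (7.709%) and the CArG box in no member (1.293%).

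The bases upstream of the start site of CCN2, ANKRD1 and YAP1 are printed because CCN2 and ANKRD1 share the TEAD motif yet stood on opposite sides of the comparison, and because YAP1 holds the TEAD motif and the E-box together. For LATS2 only the 30 bases around the start are given. Capitals mark the TEAD motif GGAATG and the E-box CACGTG, and each sequence is read 5′ to 3′ on the strand of its gene (build GRCh38.p14).
CCN2, chr6:131951373-131951622, minus strand: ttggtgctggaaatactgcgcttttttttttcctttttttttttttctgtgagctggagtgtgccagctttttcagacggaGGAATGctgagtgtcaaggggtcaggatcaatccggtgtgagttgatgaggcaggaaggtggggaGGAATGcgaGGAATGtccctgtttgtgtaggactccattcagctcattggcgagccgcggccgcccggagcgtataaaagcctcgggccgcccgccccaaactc
ANKRD1, chr10:90921088-90921337, minus strand: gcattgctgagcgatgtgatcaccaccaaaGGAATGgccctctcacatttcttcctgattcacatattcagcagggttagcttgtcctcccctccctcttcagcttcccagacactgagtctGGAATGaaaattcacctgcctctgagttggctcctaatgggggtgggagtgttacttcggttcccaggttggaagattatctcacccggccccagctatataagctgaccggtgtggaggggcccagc
YAP1, chr11:102110197-102110446, plus strand: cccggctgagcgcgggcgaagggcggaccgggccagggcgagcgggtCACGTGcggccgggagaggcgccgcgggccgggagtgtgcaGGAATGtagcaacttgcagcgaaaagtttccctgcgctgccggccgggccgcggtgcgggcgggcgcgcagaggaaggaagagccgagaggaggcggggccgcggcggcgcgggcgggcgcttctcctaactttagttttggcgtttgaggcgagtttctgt
LATS2, chr13:21061567-21061596, minus strand: ggggtCACGTGacgcccgtGGAATGccaac

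In CCN2 the motif occurs 3 times, at positions -169 to -164, -104 to -99 and -95 to -90, counted from the start site at +1 with no position 0. Only 44 of the 35116 windows (0.125%) hold 3 or more matches. ANKRD1 holds it at -220 to -215 and -128 to -123, with the AP-1 letters at -195 to -189. YAP1 holds the E-box at -203 to -198 and the TEAD motif at -162 to -157. In LATS2 the E-box runs from -5 to +1 and the TEAD motif from +10 to +15. AMOTL2 holds the reverse complement CATTCC at -69 to -64 in the window chr3:134374398-134374697. AJUBA holds the forward letters at -59 to -54 in the window chr14:22976793-22977092. The other windows of these genes, chr3:134375368-134375667 and chr14:22982502-22982801, hold no TEAD motif. These matches describe letters in a window and say nothing of binding in HK-2 cells.

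First, to ask what differed in the pathway between the groups, all 12 genes were compared between Doxy(+) and Doxy(-). ANKRD1 rose 1.84-fold. CCN1 fell by 29.6%, WWTR1 fell by 27.3%, CCN2 fell by 23.8% and AMOTL2 fell by 13.5%. YAP1, the 4 TEAD genes, AJUBA and LATS2 did not pass the test. Thus 5 of the 12 had an adjusted p under 0.05 in edgeR's quasi-likelihood test with Benjamini-Hochberg adjustment, 1 higher and 4 lower, where 19.3% of all tested genes passed, 9.76% higher and 9.53% lower. The count of higher members, 1 in 12, is close to the share of all genes that were higher. No member passed the study's second limit, a log2 fold change (log2FC) over 1 in size, which 1.98% of all tested genes passed in either direction (1.5% higher and 0.479% lower). At p under 0.05 without adjustment, 3 members were higher and 6 lower, beside 16.8% and 16.6% of all tested genes (33.4% in either direction), and adjusted p-values below are those of this edgeR fit. DESeq2 gave the same counts as edgeR at the adjusted limit, 1 higher and 4 lower, where 2269 of its 21193 genes passed in either direction.

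The median log2FC of the 12 genes was -0.14, beside 0.0006 for all tested genes, with 4 of the 12 above 0 and 8 below. All members except TEAD4 had ranges that did not overlap between the groups, 4 higher and 7 lower in Doxy(+). With 2 libraries a group this says little, since 61.1% of all tested genes had such ranges, 31.1% higher and 30.0% lower.

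**Figure D1:**
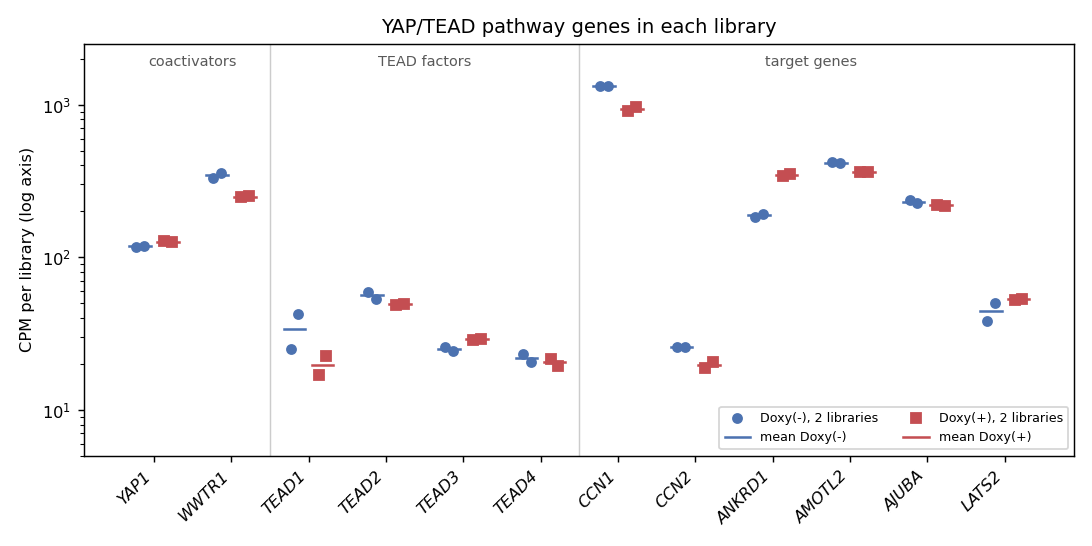
CPM of the 12 genes on a log axis, with a point for each Doxy(-) library (blue circles) and each Doxy(+) library (red squares) and a line at each group mean (n = 2 each). ANKRD1 stands higher in Doxy(+) at 342 and 354 CPM, CCN1, CCN2, WWTR1 and AMOTL2 stand lower, and the ranges of TEAD4 overlap.

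Of the coactivators, WWTR1 passed the test and YAP1 did not, and the difference between them was not tested. WWTR1 (ENSG00000018408.15, chr3:149517235-149736714, minus strand), the gene of TAZ, was read at 332 and 355 CPM in Doxy(-) against 247 and 253 CPM in Doxy(+). Both Doxy(+) values lay below both Doxy(-) values, by more than the gap between libraries of a group. Its mean went from 344 ± 15.8 to 250.1 ± 4.15 CPM (SD, n = 2 each), a log2FC of -0.46 (SE 0.0421, adjusted p = 0.00129).

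YAP1 (ENSG00000137693.14, chr11:102110447-102233424, plus strand) was read at 117 and 119 CPM in Doxy(-) against 128 and 125 CPM in Doxy(+). The Doxy(+) libraries were slightly higher and the gap between groups was small, with a log2FC of 0.10 (SE 0.0408) that did not pass (adjusted p = 0.141, unadjusted p 0.0454). Annotated pseudogenes of YAP1, YAP1P1 and YAP1P2, could share reads with it. In these bulk libraries, fewer cells that express a gene and less of its RNA per cell cannot be told apart.

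Levels between genes were compared per length, as TPM, the transcript abundance that sums to 1000000 in a library. Over all transcripts WWTR1 stood at 301 ± 16.8 TPM in Doxy(-) and 205 ± 11.4 TPM in Doxy(+), and YAP1 at 53.1 ± 1.14 and 60.6 ± 1.02 TPM. The large WWTR1 value rests on a short transcript annotated for nonsense-mediated decay, WWTR1-205 of 584 nt, which held 51.7% to 69.6% of the gene's TPM in a library but only 13.6% to 20.5% of its estimated counts. Over transcripts annotated as coding, WWTR1 stood at 86.6 ± 0.967 TPM and 70.3 ± 0.486 TPM, and YAP1 at 50.5 ± 2.25 and 55.5 ± 2.67 TPM. The ratio of WWTR1 to YAP1 in coding TPM was thus 1.75 and 1.67 in the Doxy(-) libraries and 1.23 and 1.304 in the Doxy(+) libraries. WWTR1 was above YAP1 in every library on both scales, and the ratio was smaller in both Doxy(+) libraries.

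**Figure D2:**
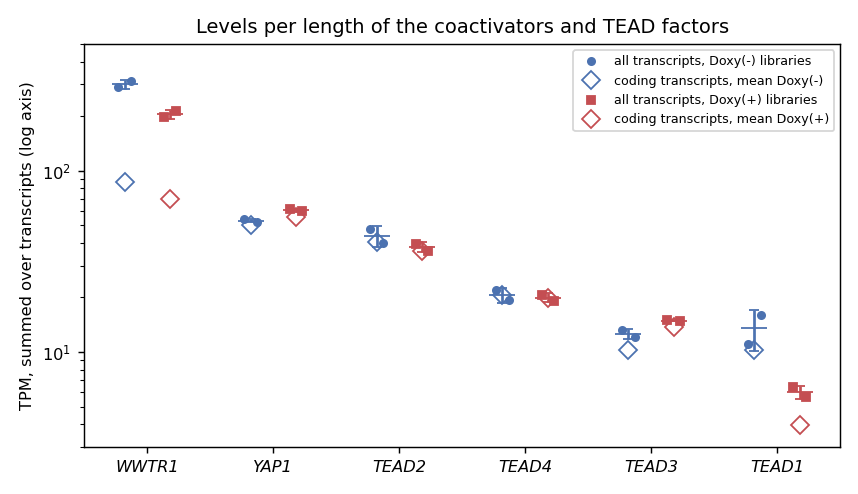
Level per length of the coactivator and TEAD genes as TPM on a log axis. Filled points are single libraries over all transcripts, with the mean and SD (n = 2 each), and open diamonds are group means over coding transcripts. WWTR1 is highest on both scales but its diamonds, at 86.6 and 70.3 TPM, lie far below its filled points, and TEAD1 in Doxy(+) is lowest.

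None of the 4 TEAD genes passed the test (edgeR quasi-likelihood and DESeq2 both 0 of 4). At an unadjusted edgeR p under 0.05, TEAD1 and TEAD2 were lower and TEAD3 was higher, a limit that 33.4% of all tested genes passed in either direction. TEAD1 (ENSG00000187079.20, chr11:12674421-12944737, plus strand), a DNA-binding partner of YAP and TAZ, was read at 24.98 and 42.5 CPM in Doxy(-) against 16.9 and 22.5 CPM in Doxy(+). The Doxy(-) libraries differed from each other by more than the nearest libraries of the 2 groups did. Its log2FC of -0.78 was the largest of the family in size and the least precise (SE 0.264, adjusted p = 0.0942). Without Doxy(-) 1 it was -1.11 (adjusted p = 0.00314), and it passed in 6 of the 14 alternatives, over which it ran from -1.21 to -0.34.

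TEAD2 (ENSG00000074219.14, chr19:49340595-49362457, minus strand) was read at 58.8 and 53.6 CPM in Doxy(-) against 48.5 and 49.6 CPM in Doxy(+). The log2FC was -0.19 (SE 0.0657, adjusted p = 0.0943), and it passed without Doxy(-) 2, at -0.26 (adjusted p = 0.0413). Exons of TEAD2 overlap those of CD37 on the opposite strand, and the counting is not stated to use strand.

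TEAD3 (ENSG00000007866.22, chr6:35473597-35497079, minus strand) was the one family member with both Doxy(+) libraries higher, at 28.9 and 29.1 CPM against 26.0 and 24.2 CPM. The log2FC of 0.21 (SE 0.0762, adjusted p = 0.113) did not pass. TEAD4 (ENSG00000197905.10, chr12:2959330-3040676, plus strand) was read at 23.0 and 20.5 CPM in Doxy(-) against 21.6 and 19.5 CPM in Doxy(+). Its ranges overlapped, and its log2FC of -0.08 (SE 0.104, adjusted p = 0.639) was smaller than its error.

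Per length, the order of the family was TEAD2, TEAD4, TEAD3 and TEAD1 in the means of coding TPM in Doxy(+), at 36.0 ± 1.998, 19.9 ± 1.13, 13.7 ± 1.54 and 3.94 ± 0.304 TPM. In Doxy(-) TEAD3 and TEAD1 could not be separated, at 10.3 ± 1.03 and 10.3 ± 3.17 TPM, below TEAD2 at 40.7 ± 4.199 and TEAD4 at 20.6 ± 1.85 TPM. Summed over the 4 genes, the TEAD level over all transcripts was 94.0 and 87.1 TPM in Doxy(-) and 81.7 and 75.8 TPM in Doxy(+). TEAD2 made up 45.6% to 50.8% of that sum in every library, so its share overlapped between the groups.

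Next, the target genes were examined, beginning with the CCN family of secreted matricellular proteins. CCN1 (CYR61, ENSG00000142871.18, chr1:85580761-85584589, plus strand) binds integrins and is among the most used readouts of YAP/TAZ. It was read at 1335 and 1326 CPM in Doxy(-) against 905 and 967 CPM in Doxy(+), the most abundant of the 12 genes, from 11656 to 19490 estimated counts. The Doxy(-) libraries lay close together and both Doxy(+) libraries lay well below them. Its mean went from 1330.4 ± 5.87 to 936 ± 43.7 CPM, a log2FC of -0.51 (SE 0.0372, adjusted p = 0.000615), and its highest adjusted p over the 14 alternatives was 0.016.

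CCN2 (CTGF, ENSG00000118523.6, chr6:131948176-131951372, minus strand), a profibrotic relative of CCN1 and the gene with 3 TEAD motifs upstream, was read at 25.8 and 25.9 CPM in Doxy(-) against 18.7 and 20.6 CPM in Doxy(+). Both Doxy(+) values were lower, and the estimated counts behind them were only 241 to 381.1. The log2FC was -0.39 (SE 0.0877, adjusted p = 0.0282), close to that of CCN1 in size. The CCN2 call was lost in 8 of the 14 alternatives, among them every fit without a library. Its log2FC was then -0.40 without Doxy(-) 1, -0.39 without Doxy(-) 2, -0.33 without Doxy(+) 1 and -0.47 without Doxy(+) 2, with edgeR adjusted p of 0.0616, 0.0681, 0.143 and 0.0571.

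Per length, CCN1 stood at 877 ± 8.07 TPM in Doxy(-) and 635 ± 31.3 TPM in Doxy(+), and CCN2 at 16.5 ± 0.00566 and 12.9 ± 0.863 TPM. The ratio of CCN1 to CCN2 in TPM was 53.6 and 52.9 in Doxy(-) but 49.8 and 48.5 in Doxy(+). CCN1 thus stayed far above CCN2 in all 4 libraries.

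Of the 4 other CCN genes, which are not YAP/TAZ readouts in common use, CCN3 (NOV) moved the other way. It was read at 66.7 and 67.1 CPM in Doxy(-) against 95.5 and 95.2 CPM in Doxy(+), a log2FC of 0.51 (SE 0.0466, adjusted p = 0.00126). CCN5 was read at 21.8 and 19.7 CPM against 26.8 and 24.1 CPM and did not pass (log2FC 0.29, adjusted p = 0.0936). CCN4 had 1 count in Doxy(-) 2 and none elsewhere, and CCN6 had 0 counts in every library, which allows up to 3 counts, or 0.204 to 0.233 CPM, by counting error alone.

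ANKRD1 (CARP, ENSG00000148677.7, chr10:90912096-90921087, minus strand) is a nuclear and sarcomeric ankyrin repeat protein and another standard YAP/TAZ readout. It was read at 184 and 193 CPM in Doxy(-) against 342 and 354 CPM in Doxy(+), from 2376 to 4749 estimated counts. The groups lay far apart compared with the gap between libraries of a group. Its mean went from 189 ± 6.27 to 348 ± 8.57 CPM, a log2FC of 0.88 (SE 0.0397, adjusted p = 0.00017), and 3.38% of all tested genes had a larger one. The call held in all 14 alternatives, with a highest adjusted p of 0.00797.

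ANKRD1 and the CCN pair therefore went in opposite directions in the same libraries. The ratio of ANKRD1 to CCN1 in TPM was 0.159 and 0.168 in Doxy(-) but 0.437 and 0.421 in Doxy(+). Against CCN2 it was 8.53 and 8.87 in Doxy(-) but 21.7 and 20.4 in Doxy(+). ANKRD1 itself stood at 143 ± 4.10 TPM in Doxy(-) and 272 ± 6.17 TPM in Doxy(+), below CCN1 and above CCN2 in every library. The CCN2 and ANKRD1 promoters printed above both carry GGAATG, 3 times in CCN2 and at 2 places in ANKRD1.

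AMOTL2, AJUBA and LATS2 are targets that also act on the pathway. AMOTL2 (ENSG00000114019.15, chr3:134355347-134375479, minus strand), an angiomotin that binds YAP and holds it at junctions and in the cytoplasm, was read at 419 and 417 CPM in Doxy(-) against 361 and 362 CPM in Doxy(+). The libraries of each group were nearly equal and the Doxy(+) libraries were lower. Its log2FC of -0.21 (SE 0.0289, adjusted p = 0.00536) was the smallest of the 5 that passed. The AMOTL2 call was lost in 5 of the 14 alternatives, among them the fits without Doxy(+) 1 (adjusted p = 0.0601) and without Doxy(+) 2 (0.0545).

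AJUBA (ENSG00000129474.17, chr14:22971177-22982551, minus strand), a LIM protein that binds and restrains the LATS kinases, was read at 236 and 226 CPM in Doxy(-) against 221 and 218 CPM in Doxy(+). A log2FC of -0.07 (SE 0.0378, adjusted p = 0.254) did not pass, and its exons overlap those of an unnamed gene, ENSG00000259132, on the same strand.

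LATS2 (ENSG00000150457.9, chr13:20973036-21061586, minus strand), the kinase that phosphorylates YAP and TAZ and whose gene is itself a target, was read at 38.4 and 49.9 CPM in Doxy(-) against 52.7 and 53.6 CPM in Doxy(+). The Doxy(-) libraries differed from each other by more than Doxy(-) 2 differed from either Doxy(+) library. Its log2FC was 0.26 (SE 0.119, adjusted p = 0.185). Without Doxy(-) 2 it was 0.47 (adjusted p = 0.00482), and over the 14 alternatives it ran from 0.09 to 0.47.

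**Figure D3:**
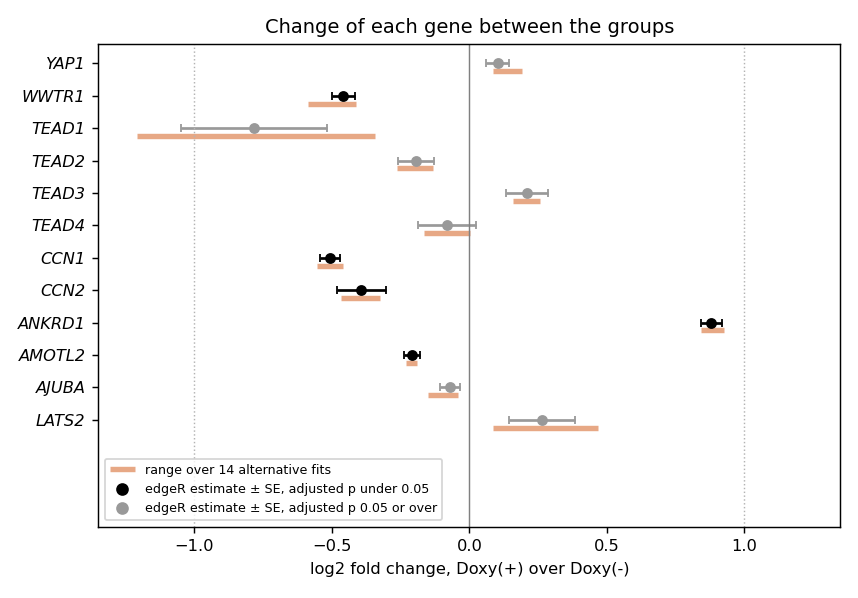
Log2 fold change of the 12 genes, Doxy(+) over Doxy(-), with the SE of the edgeR fit as whiskers and the range over 14 alternative fits as orange bars below them. Black points passed the adjusted p limit and grey points did not, and dotted lines stand at -1 and 1. ANKRD1 is farthest above 0 at 0.88 and TEAD1 farthest below at -0.78, where the SE is also widest at 0.264.

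Beside these 12, 3 further lists were described. They were written from general knowledge of the field but with earlier results of these data known. Their counts are therefore descriptions and cannot test whether the pathway moved. The first held 16 other YAP/TAZ targets, of which FOXF2 had no matched transcript and 15 were tested. In the edgeR fit 6 of the 15 were lower and 1 was higher, against 9.53% and 9.76% of all tested genes, and the median log2FC was -0.31. F3, CCDC80 and TGFB2 also passed the log2 limit of 1, as did 0.479% of all tested genes in that direction. Among the genes lower in Doxy(+) were also NT5E, AXL and CRIM1, with log2FCs of -0.70, -0.31 and -0.31, and CRIM1 has copies among the transcripts that matched no gene.

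F3, tissue factor, the cell-surface starter of coagulation, was read at 50.04 and 46.8 CPM in Doxy(-) against 15.3 and 16.8 CPM in Doxy(+). The fitted log2FC was -1.59 (SE 0.0815, adjusted p = 0.000216), the most negative of the list. CCDC80, a secreted matrix protein, was read at 364 and 385 CPM against 168 and 167 CPM, a log2FC of -1.16 (SE 0.0401, adjusted p = 7.18e-05). TGFB2, the ligand transforming growth factor beta 2, went from 231 and 245 CPM to 111 and 118 CPM, a log2FC of -1.06 (SE 0.0486, adjusted p = 0.000173). These 3 genes stood well apart between the groups, and each was changed more than CCN1 in log2FC.

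GADD45A, a growth arrest gene also induced by DNA damage and stress, was the one listed target that passed the test as higher. It went from 59.0 and 59.7 CPM to 67.4 and 71.3 CPM. Its log2FC of 0.22 (SE 0.0557, adjusted p = 0.0393) was lost in 9 of the 14 alternatives, among them all 4 fits without a library. Classical targets such as MYOF, ASAP1 and NUAK2 had log2FCs of -0.03, -0.03 and 0.06 and did not pass. RBMS3 and IGFBP3, at -0.98 and -0.36, did not pass either, nor did FJX1, DOCK5 and ARHGEF17, at -0.11, 0.04 and 0.00. Like the 12 genes above, the list therefore held values on both sides of 0, with more genes lower than higher.

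The second list held 24 Hippo kinases and regulators, of which 23 were tested and VGLL3 was too low. In the edgeR fit 3 were higher and 6 lower, against 9.76% and 9.53% of all tested genes, with a median log2FC of -0.06. The count of higher genes is near the share over all genes. SAV1, the scaffold of the MST kinases, was read at 28.1 and 27.8 CPM in Doxy(-) against 37.6 and 37.8 CPM in Doxy(+), a log2FC of 0.43 (SE 0.0631, adjusted p = 0.00638). The SAV1 call was lost in 3 of the 14 alternatives, and exons of SAV1 overlap those of ATL1 on the opposite strand.

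VGLL4, which competes with YAP for TEAD, went from 42.1 and 41.6 CPM to 49.7 and 50.6 CPM (log2FC 0.26, adjusted p = 0.0225), and its exons overlap those of ATG7 on the opposite strand. STK4, the kinase MST1, went from 105 and 108 CPM to 121 and 123 CPM (log2FC 0.20, adjusted p = 0.0254). The VGLL4 call was lost in 8 of the 14 alternatives, among them DESeq2, and the STK4 call in 7. For both genes these took in the fits without Doxy(+) 1 or Doxy(+) 2. The VGLL4 call was also lost without Doxy(-) 2 and the STK4 call without Doxy(-) 1. The kinases STK3 and LATS1 and the cofactors MOB1A and MOB1B had log2FCs of 0.09, -0.05, 0.00 and -0.06 and did not pass.

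Among the lower genes of this list, FRMD6 (Willin), a FERM domain protein of the apical cortex, was read at 244 and 242 CPM in Doxy(-) against 160.3 and 155 CPM in Doxy(+), a log2FC of -0.62 (SE 0.0367, adjusted p = 0.000316). WWC1 (KIBRA), which activates LATS with NF2, went from 189 and 179 CPM to 142.5 and 149 CPM (log2FC -0.34, adjusted p = 0.00541). PTPN14, a phosphatase that binds YAP, went from 509 and 488 CPM to 407 and 390 CPM (log2FC -0.32, adjusted p = 0.003). The WWC1 call was lost in 3 of the 14 alternatives and the PTPN14 call in 2. NF2 and WWC2 were lower too, with log2FCs of -0.28 and -0.19 (adjusted p = 0.0176 and 0.047). WWC2 thus lay just under the limit, and MAP4K4 just over it (adjusted p = 0.052). Other members upstream of LATS or bound to YAP, MAP4K4, TAOK1, AMOT and AMOTL1, had log2FCs of -0.19, -0.08, -0.03 and 0.14 and did not pass.

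The third list held 14 targets of SRF and its actin-regulated coactivators, the MRTFs, whose target genes partly overlap with those of YAP/TAZ. Of the 12 tested, 8 were lower and none higher in the edgeR fit, against 9.53% and 9.76% of all tested genes, with a median log2FC of -0.32. Unadjusted p-values under 0.05 also counted 8 lower and none higher, beside 16.6% and 16.8% of all tested genes. DESeq2 at the adjusted limit gave 8 lower and none higher as well, where 2269 of its 21193 genes passed in either direction. ACTA2 and TPM2 were too low to be tested.

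SRF itself was read at 58.4 and 57.7 CPM in Doxy(-) against 38.6 and 45.7 CPM in Doxy(+). Its log2FC was -0.46 (SE 0.0863, adjusted p = 0.0157), and -0.35 without Doxy(+) 1. The SRF call was lost in 5 of the 14 alternatives. CNN2, a calponin of the actin skeleton, went from 387 and 411 CPM to 294 and 301.5 CPM (log2FC -0.42, adjusted p = 0.0014). FLNA, the actin crosslinker filamin A, went from 2667 and 2652 CPM to 1956 and 2046 CPM (log2FC -0.41, adjusted p = 0.000615), and has copies among the transcripts that matched no gene. TPM1, VCL, MYH9, ACTB and ACTG1 were lower too, with log2FCs of -0.39, -0.39, -0.34, -0.31 and -0.20. ACTG1 also has copies among the transcripts that matched no gene, and exons of VCL overlap AP3M1 on the opposite strand. For ACTB (adjusted p = 0.032) the Doxy(+) libraries differed, at 528 and 619 CPM. The TPM of ACTB overlapped between the groups, at 1257 and 1147 in Doxy(-) against 1023 and 1155 in Doxy(+). MYL9, FHL2, CNN1 and TAGLN, at 0.01, -0.07, -0.10 and 0.07, did not pass.

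Markers of other cell types were set beside these lists. COL1A1, the most abundant fibroblast marker, was lower in Doxy(+), with a log2FC of -0.40 (adjusted p = 0.0414), a call that DESeq2 did not make. MYH11, the other tested marker of the fibroblast and smooth muscle list, had a log2FC of 0.78 and did not pass (adjusted p = 0.306). COL1A2, PDGFRA, PDGFRB and DES had at most 4 counts in any library. The 7 proximal tubule markers summed to 74.5 and 74.7 CPM in Doxy(-) and 83.5 and 90.5 CPM in Doxy(+), mostly GGT1 (0.25, adjusted p = 0.041). The other tested markers of that list, SLC34A1, SLC5A2 and CUBN, had log2FCs of -1.64, -0.06 and 0.36 at low CPM and did not pass. The epithelial KRT8, KRT18 and CDH2 were lower too, at -0.24, -0.24 and -0.45, the keratins overlapping each other on opposite strands, and PAX8 was not changed past the limit (0.06, adjusted p = 0.217). The part of these markers in the results for the pathway was not tested.

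**Figure D4:**
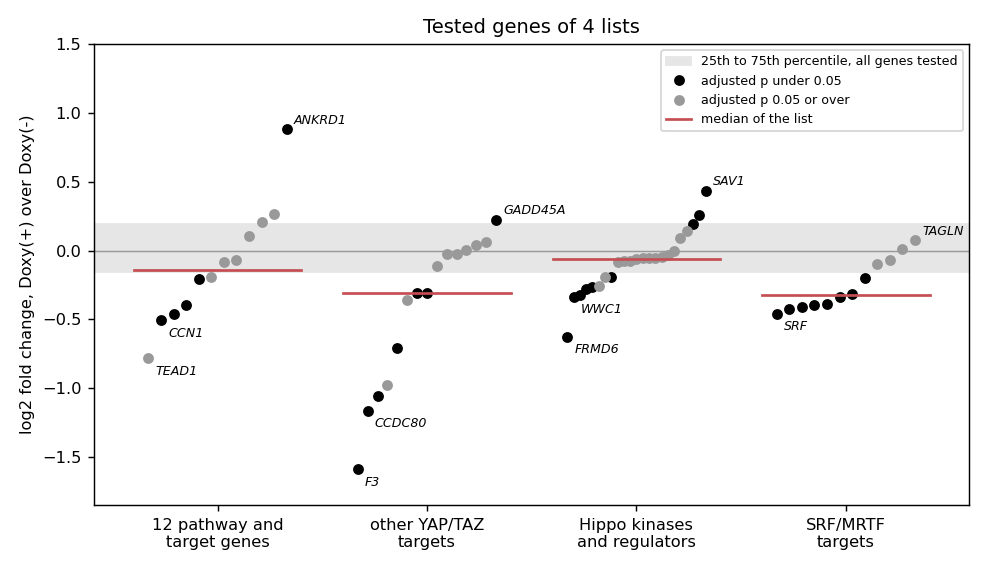
Log2 fold change of every tested gene of the 12 members and of the 3 further lists, Doxy(+) over Doxy(-), 1 point a gene, with the list's median as a red line (-0.14, -0.31, -0.06 and -0.32). Black points passed the adjusted p limit in edgeR and grey points did not, and the shaded band spans the 25th to 75th percentile of all tested genes, -0.15 to 0.19.

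Finally, the genes whose profile over the 4 libraries was most like that of a member were found among 7740 tested genes that averaged 20 CPM or more, by the Euclidean distance of log2 CPM centred on each gene's mean. Nearest to CCN1 were SLC30A1, CRLS1 and HMGA2 (distances 0.0101, 0.0304 and 0.0358). Nearest to CCN2 were EXO1, RAC2 and PLXNA1 (0.0154, 0.0215 and 0.0249), and nearest to ANKRD1 were FCGRT, SLC35F6 and SLITRK5 (0.0331, 0.0523 and 0.056). For YAP1 they were MAGT1, RAB18 and RPL39L (0.0119, 0.0157 and 0.0165). With 4 libraries many genes lie near any profile, and likeness is a description of these libraries only.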

How the data were processed

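Polyadenylated RNA was sequenced from 2 Doxy(-) and 2 Doxy(+) libraries. Per the labels the libraries came from a stranded TruSeq kit, and the submitters' processing notes name Trim Galore 0.6.6, cutadapt 2.5, STAR 2.7.9a and hg38. The study's methods add RSEM and DESeq2, but the deposited tables have the columns of kallisto. The quantifier's version and the use of strand are not given in the sources used here. The authors deposited estimated counts (expected counts, not whole and not normalized) and TPM for 180253 transcripts, with lengths that set the TPM scale.

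Transcripts were matched to genes by GENCODE release 44. Of the identifiers, 150691 (83.6%) matched, giving 34080 genes, and 29562 with 9.66% to 9.89% of each library's counts did not and stayed out. Counts were summed per gene, rounded and tested in R 4.3.3 with edgeR 4.0.16 (glmQLFit and glmQLFTest, TMM scaling, filterByExpr, group only), with Benjamini-Hochberg adjustment over all 13569 genes tested. CPM uses the TMM-scaled library total, log2 fold changes are Doxy(+) over Doxy(-), and the SE is the one implied by the F statistic. The script was tested on simulated counts. The common biological coefficient of variation was 6.53%. Reads carry no molecular identifiers, so counting limits cover counting error only.

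The members and lists were chosen with earlier results of these data known. Named are the members and TFE3, up to 3 genes per direction of each list with an adjusted p under 0.05 and a mean of at least 5 CPM, and 3 neighbours of 4 members. Other genes named were chosen after their values were seen, and 1 list gene is not reported here. The alternatives were RLE size factors, other low-count filters, DESeq2 1.42.0 (with the local dispersion fit), limma 3.58.1 on log2(TPM + 1) and log2(TPM + 0.1), length-scaled counts, unmatched transcripts tested or added as copies, a replicate block, and leaving out each library.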

Additional observations from a re-analysis of the deposited data

How the results depend on the processing

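Over 14 alternatives, 11 of the 12 members kept their direction in every fit and 6 also their side of the 0.05 limit (YAP1, WWTR1, TEAD3, CCN1, ANKRD1 and AJUBA). Of 168 member fits, 13 lost a call, 8 gained one and 1 reversed: without Doxy(-) 1 the log2 fold change of TEAD4 was 0.0005, and -0.17 without Doxy(-) 2 (edgeR adjusted p 0.998 and 0.424). The members' counts of 1 higher and 4 lower ran from 1 to 2 (2 without Doxy(-) 2) and from 2 to 4 (2 without Doxy(+) 1 or Doxy(+) 2) when 1 library was left out. Where a log2 fold change beyond 1 was also required, the counts were 0 and 0 for members, 0 higher and 3 lower for other YAP/TAZ targets, 0 and 0 for Hippo regulators and 0 lower for SRF/MRTF targets.

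For other YAP/TAZ targets, the 1 higher gene was lost (0) with DESeq2, both limma fits, length-scaled counts, unmatched transcripts tested beside the genes, the crossed replicate block and every fit without a library (0 to 0), and the 6 lower ran from 5 to 7. For Hippo regulators, 3 higher became 0 in both limma fits and with length-scaled counts and 1 with unmatched transcripts, and 1 to 2 without a library. Their 6 lower became 2 in both limma fits, 3 with unmatched transcripts and 3 to 7 without a library. For SRF/MRTF targets, 8 lower became 5 in both limma fits and 5 to 8 without a library. The causes were not tested. Over all genes, 2618 calls became 904 and 889 with limma, 1241 with length-scaled counts, 1441 with unmatched transcripts, and 1212 without Doxy(+) 1 and 1328 without Doxy(+) 2.

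Deviations of same-numbered libraries from their group means correlated at r = -0.144 across 9609 genes, which gave no sign that the number pairs them. The replicate block gave 1 higher and 5 lower members and 2543 calls over all genes, the fifth being TEAD1 (log2 fold change -0.76, edgeR adjusted p 0.00539). The crossed pairing, chosen after seeing the data, gave 2311. TEAD1, TEAD3, TEAD4 and CCN2 had the fewest reads of the members.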

Other observations

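The transcript with the most counts was not the same in every library for YAP1, AMOTL2 and TEAD2. The share of YAP1 estimated counts on transcript YAP1-201 was 47.5% and 49.6% in Doxy(-) but 32.1% and 39.8% in Doxy(+). On transcript YAP1-202 it was 30.2% and 25.3% in Doxy(-) but 35.9% and 37.3% in Doxy(+). YAP1-201 was thus the smaller of the pair in Doxy(+) 1 only. AMOTL2-202 led in every library except Doxy(+) 2, where AMOTL2-201 held 49.6% against 40.2%. TEAD2-201 led in every library except Doxy(+) 2, where TEAD2-210 held 29.9% against 26.5%. These shares rest on how the authors' quantifier divided reads that fit several transcripts, and they were not tested.

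For WWTR1, transcript WWTR1-203 held 72.8% to 75.1% of estimated counts in every library. TEAD1-203 held 83.7% and 87.1% of TEAD1 counts in Doxy(-) and 84.3% and 89.8% in Doxy(+).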
